A study of Mus musculus with 12 samples.

Results

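Cartilage pellets at the end of their chondrogenic culture (D7) were compared with pellets that had then spent 3 days in osteogenic medium (D10), 6 of the 12 libraries of the series. The cells were mesenchymal progenitors that collagenase released from the ends of the femurs and tibiae of C57/BL6 pups aged 5 or 6 days. After a day as an adherent culture they were spun into pellets, and the pellets of both groups were held for 7 days in chondrogenic medium. The D7 group was harvested then, at 0 days in osteogenic medium, and the D10 group at 3 days. The remaining libraries were taken after 1 day (D8) and 21 days (D28) in osteogenic medium, with 3 libraries at each time point. No pellet kept in chondrogenic medium until day 10 is among the libraries, so the change of medium and the 3 further days of culture cannot be told apart. A gene was tested when 3 or more of the 12 libraries had it at a log2 value of 1 or above, which held for 17674 of the 28244 genes listed, while 10570 did not pass, of which 7935 were at 0 in every library.

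During endochondral ossification, growth plate chondrocytes proliferate, enlarge into hypertrophic cells and leave a calcified matrix on which bone is laid down. Indian hedgehog from prehypertrophic cells and parathyroid hormone-related protein form a loop that times this maturation. BMP, Wnt and FGF signals, and the secreted proteins that bind and block them, act on the same cells, and hypertrophic chondrocytes or their descendants can express osteoblast genes. The comparison asks which of these genes had already moved after 3 days in osteogenic medium.

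Each value is the deposited log2 of an equalized read count plus 1, called a level here, and levels are given in the order of replicates 1 to 3. Because the equalization gives each library nearly the same set of values, a level states a rank within its library, and original totals are not kept. The relative depth, read from low levels, was 0.790 to 1.06 at D7 and 0.730 to 1.05 at D10, lowest in D10 replicate 1. A floor of 3 reads lay at a level of at most 2.87, and a fold against a group wholly at or under its floor is given as a bound, computed with lower levels raised to 2.87. These levels cover counting error only. The distance between libraries was 92.9 to 99.1 within D7, 97.6 to 118 within D10 and 156 to 185 between them. The closest pair across groups thus lay farther apart than any replicates. Within D10, replicate 1 lay 118 and 116 from the other libraries, which were 97.6 apart. The share of mitochondrially encoded genes in the summed unlogged values was 1.31% ± 0.30 (SD, n = 3) at D7 and 2.85% ± 0.19 at D10, and its part in the results was not tested.

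The pellets were checked against markers of cartilage and bone cells. Col2a1, the main cartilage collagen, held the highest level of the library in each D7 replicate, 20.92. The level of Sox9, the master regulator of chondrocytes, was 12.55, 12.03 and 12.55 at D7 and 12.61, 12.22 and 12.47 at D10. Col10a1, the collagen of hypertrophic cartilage, stood at 17.38, 17.16 and 17.27 at D7 and at 17.65, 18.32 and 18.32 at D10. Its groups did not overlap, but its log2 fold change of 0.83 was not called (adjusted p = 0.14, limma with Benjamini-Hochberg adjustment). The osteoblast genes Runx2, at 10.34, 9.77 and 10.37, and Sp7, at 10.61, 10.19 and 10.91, were also present at D7. Col1a1, Ibsp and Alpl stood at higher levels there and the osteocalcin genes at low ones, as given below. In bulk pellets, fewer cells of a type and less RNA per cell cannot be told apart.

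A gene was called when its absolute log2 fold change was at least 1 and its adjusted p was under 0.05 by limma. Of the genes tested, 3340 (18.9%) were called, 1502 (8.50%) higher and 1838 (10.4%) lower at D10. The median size of the change was 1.62 among the higher and 1.91 among the lower genes, and 494 of the former and 848 of the latter changed by at least 2. The groups of 3 libraries did not overlap for 1456 of the higher and 1792 of the lower genes, beside 47.5% of all genes tested (25.4% higher and 22.0% lower). In 226 of the higher genes every D7 library, and in 366 of the lower genes every D10 library, was at or under 3 reads. With genes split by mean level into 4 equal bins, the share called from the lowest bin to the highest was 18.1%, 30.0%, 13.1% and 14.4%.

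Promoters are shown for 4 genes of the results that follow, because their levels rose and their upstream bases hold a known response element. Hspa5 and Hsp90b1 encode chaperones of the endoplasmic reticulum, Areg encodes an EGF receptor ligand and Dusp5 a phosphatase of ERK. The sequences are the 150 bases before the start in RefSeq, build GRCm38.p6, read 5′ to 3′ on the gene's strand, with the element in capitals. They lie at chr2:34771940-34772089 on the + strand (Hspa5), chr10:86705445-86705594 on the - strand (Hsp90b1), chr5:91139449-91139598 on the + strand (Areg) and chr19:53528995-53529144 on the + strand (Dusp5).
Hspa5: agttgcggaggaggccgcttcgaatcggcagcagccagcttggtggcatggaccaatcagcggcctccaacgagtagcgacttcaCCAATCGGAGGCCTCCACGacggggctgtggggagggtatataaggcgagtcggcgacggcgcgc
Hsp90b1: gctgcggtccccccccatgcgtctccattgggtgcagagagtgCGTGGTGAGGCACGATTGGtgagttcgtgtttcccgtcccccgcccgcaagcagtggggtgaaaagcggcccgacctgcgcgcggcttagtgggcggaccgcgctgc
Areg: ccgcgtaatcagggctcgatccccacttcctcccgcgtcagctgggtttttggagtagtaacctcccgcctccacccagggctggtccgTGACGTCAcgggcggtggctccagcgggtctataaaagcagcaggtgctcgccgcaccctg
Dusp5: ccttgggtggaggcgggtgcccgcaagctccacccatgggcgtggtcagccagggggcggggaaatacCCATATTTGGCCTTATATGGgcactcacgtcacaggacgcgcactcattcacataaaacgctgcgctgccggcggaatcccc
The capitals mark the ER stress response element, 65 bases before the start in Hspa5 and, on the opposite strand, 107 before it in Hsp90b1. In Areg they mark the cyclic AMP response element 61 bases before the start, and in Dusp5 a pair of abutting CArG boxes, the binding letters of serum response factor, at 82 and 72.

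Each motif was searched on both strands in the 250 bases before the start, and 12977 of the genes tested had a promoter in the table. The ER stress response element, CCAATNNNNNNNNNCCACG, was in 0.162% of all these promoters in 0.471% (5) of those of the 1062 higher genes with a promoter and in 0.150% (2) of those of the 1332 lower genes. This motif was chosen after the data were seen. It was in 7 of the 21 promoters matched from the unfolded protein response list described below, and in 2 of those of its 6 higher genes. The cyclic AMP response element, TGACGTCA, was in 2.50% of all, 2.45% of the higher and 1.65% of the lower genes' promoters. The AP-1 letters TGANTCA were in 4.89% of all, 7.82% of the higher and 6.01% of the lower genes' promoters. CArG boxes were in 1.16% of all, 1.51% of the higher and 1.65% of the lower genes' promoters. A match describes the letters of the window and is neither a binding site nor a cause.

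The largest rises were taken among genes at a level of at least 7 in every D10 library. Fam110c, of a family of centrosomal proteins, stood at 2.03, 3.12 and 2.79 at D7 and at 8.95, 7.53 and 8.04 at D10 (log2 fold change 5.53, adjusted p = 3.1e-08, limma). Dusp4 (chromosome 8, 34807297 to 34819894, GRCm38), a nuclear phosphatase of ERK, went from 4.56, 4.16 and 3.26 to 10.17, 9.18 and 9.14. Ereg (chromosome 5, 91074622 to 91093646), which encodes the EGF receptor ligand epiregulin, went from 3.07, 4.16 and 3.56 to 8.91, 8.70 and 9.10. In these genes every D10 library stood more than 4 log2 units above every D7 library.

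The chromatin architectural proteins Hmga2 and Hmga1 rose from levels that were already moderate. Hmga2 (chromosome 10, 120361275 to 120476469) went from 7.90, 8.29 and 7.99 to 13.04, 12.67 and 12.81 (log2 fold change 4.77, standard error 0.19, adjusted p = 2.6e-10, limma). Hmga1, which has near-identical pseudogene copies that counting could split, went from 9.02, 9.24 and 9.12 to 13.80, 13.09 and 13.46. Hmga2 was between these levels at D8, with a mean of 11.03, and at 8.47 ± 0.44 (SD, n = 3) at D28. Both genes were within 1 log2 unit among replicates of each group.

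The others of the 12 largest rises were of mixed function. Cd300lb, a receptor of the immunoglobulin superfamily known from myeloid cells, went from 4.22, 4.09 and 4.72 to 9.41, 9.48 and 9.94. Csn3, the milk protein kappa-casein, went from 3.07, 2.52 and 2.03 to 7.01, 7.57 and 7.39, and Dusp9, another phosphatase of ERK, from 3.81, 4.71 and 4.56 to 9.62, 8.48 and 9.04. The log2 fold change was 5.27 for Cd300lb, 4.78 for Csn3, 4.69 for Dusp9 and 4.85 for Prr32. Itga2, Ptgs2 and the osteocalcin gene Bglap2 complete this group and are described with their families.

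**Figure D1:**
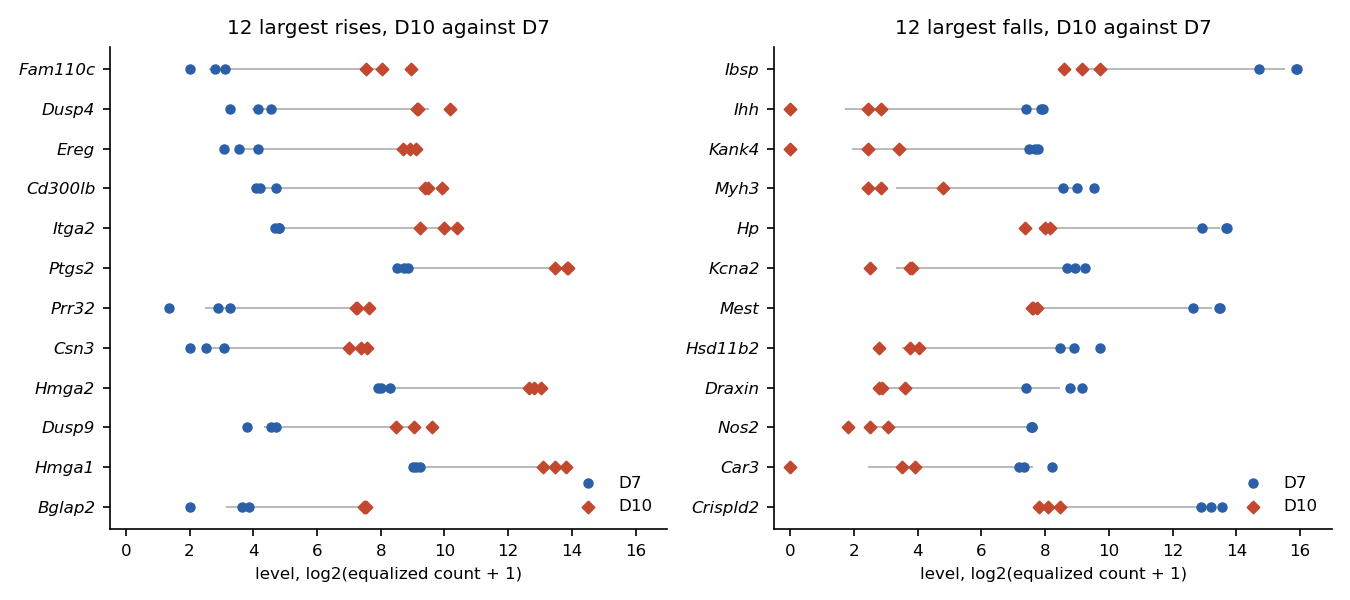
Levels, in log2 of the equalized count plus 1, of the 12 largest rises and the 12 largest falls between D7 (circles) and D10 (diamonds), with 1 point per library and a line between the group means. Genes whose groups overlap were not eligible, and Ihh, Kank4 and Car3 each have a D10 library at 0.

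The largest falls held bone, cartilage, muscle, hormone and imprinted genes. Ibsp (chromosome 5, 104299171 to 104311469), bone sialoprotein, stood at 15.87, 14.71 and 15.91 at D7 and at 8.59, 9.73 and 9.14 at D10 (log2 fold change -6.34, standard error 0.29, adjusted p = 8e-10, limma). Hp, the haemoglobin-binding plasma protein haptoglobin, went from 13.68, 12.93 and 13.71 to 7.36, 8.15 and 7.99, and stood at 16.52 ± 0.00 (SD, n = 3) at D28. Crispld2, a secreted protein gene, went from 13.19, 12.89 and 13.56 to 8.09, 8.48 and 7.80. In each of them the lowest D7 library was more than 4 log2 units above the highest D10 library.

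Other large falls ended near the floor. Nos2, inducible nitric oxide synthase, was at 7.59, 7.59 and 7.56 at D7 and at 1.81, 2.50 and 3.07 at D10. Draxin, an axon guidance gene, went from 8.78, 7.41 and 9.15 to 2.87, 3.58 and 2.79, and the potassium channel gene Kcna2 from 9.25, 8.94 and 8.69 to 3.76, 2.50 and 3.82. Car3, a carbonic anhydrase, went from 7.33, 8.23 and 7.19 to 0, 3.91 and 3.49, and the ankyrin repeat gene Kank4 from 7.68, 7.50 and 7.78 to 0, 3.43 and 2.44. Such fold changes, -5.12 for Nos2, -5.36 for Draxin, -5.60 for Kcna2, -5.11 for Car3 and -5.70 for Kank4, depend on the pseudocount of 1. Without D10 replicate 1 the values were -3.88 for Car3 and -4.72 for Kank4.

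Among called genes, those that gained most in unlogged level were Spp1, mt-Co1, Fth1, Hspa5, Col6a3 and Timp3. Spp1, which encodes the matrix phosphoprotein osteopontin, stood at 16.76, 16.92 and 16.64 at D7 and at 18.92 in every D10 library, where it took the same rank. Its mean unlogged value was 112283 at D7 and 497036 at D10 (log2 fold change 2.15, adjusted p = 4.3e-05, limma). The mitochondrially encoded oxidase subunit mt-Co1 went from 17.27, 17.82 and 16.76 to 18.61 in every D10 library, and the ferritin heavy chain gene Fth1, which has pseudogene copies, from 15.73, 15.73 and 15.96 to 18.02, 17.03 and 17.56. Col6a3, a chain of the pericellular collagen VI, rose by 1.54, and Timp3, a matrix-bound inhibitor of metalloproteinases, by 1.38.

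Among called genes, those that lost most were Col1a1, H19, Col1a2, Col3a1, Acan and Comp, and 5 of these 6 encode matrix proteins. Col1a1, the main bone collagen, went from 18.92, 18.32 and 18.92 to 16.69, 17.56 and 17.38, a log2 fold change of -1.51 (adjusted p = 0.0022, limma), and its mean unlogged value from 440660 to 156428. Col1a2 was at 18.61 in every D7 library and at 17.38, 17.65 and 17.65 at D10, a log2 fold change of -1.05. That call is lost without D10 replicate 1 (-0.96) and with low values lifted to the level of 3 reads (adjusted p = 0.15, limma). Col3a1, a fibrillar collagen of soft tissue, went from 17.82, 17.27 and 18.02 to 15.21, 16.04 and 15.60.

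Fn1, Col2a1 and Col10a1 are not among these because they were not called, and at the very top the equalization fixes the values. Col2a1 stood at 20.92 and the fibronectin gene Fn1 below it in every D7 library, and in every D10 library the order was reversed, with Col2a1 at 19.87. The difference of -1.06 for Col2a1 is thus the gap between the highest and the next value, and it was not called (adjusted p = 0.16, limma). It is called as lower without the variance trend (adjusted p = 1.3e-05, limma), with a mean level of at least 3 (adjusted p = 0.0083) and under the rule of the study. A change of rank is all that these values hold for Col2a1.

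Genes of the cartilage matrix were lower at D10 almost throughout. Of 22 noncollagenous matrix genes tested, 19 fell and 0 rose, with a median log2 fold change of -1.97, where the median over all genes tested was 0.053. Matn3 (chromosome 12, 8947929 to 8972028), which encodes the cartilage adaptor protein matrilin 3, went from 12.94, 12.40 and 12.65 to 8.11, 8.53 and 8.22 (log2 fold change -4.37, standard error 0.20, adjusted p = 7.4e-10, limma). Cilp, an intermediate layer protein of cartilage, went from 13.07, 12.78 and 12.69 to 8.72, 8.87 and 8.82. Epyc, a small proteoglycan of the growth plate, went from 11.85, 12.41 and 11.36 to 7.91, 9.04 and 8.63. The D10 libraries lay far below the D7 libraries in all of them.

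Acan, the aggregating proteoglycan aggrecan, went from 17.65, 17.65 and 17.56 to 16.08, 16.58 and 16.69, a log2 fold change of -1.17 that is -0.99 and not called without D10 replicate 1. Comp, which bridges collagen fibrils, went from 17.03, 16.76 and 17.16 to 15.06, 15.26 and 15.31. Hapln1, the link protein that ties aggrecan to hyaluronan, fell by 2.13, the angiogenesis inhibitor chondromodulin (Cnmd) by 3.09, and Matn1 by 1.83. The members without a call were Matn2 (-0.33), Mia (-1.63) and Prg4 (0.89), the last encoding the joint lubricant lubricin.

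Of 7 cartilage collagen genes, 4 fell and 0 rose. The collagen IX chains, which coat collagen II fibrils, fell together, Col9a1 by 1.65, Col9a2 by 1.57 and Col9a3 by 1.24. Col9a1 went from 16.58, 16.82 and 16.43 to 14.94, 15.04 and 14.91. Col27a1 fell by 1.41, while Col11a1 (-0.19) and Col11a2 (-0.39), chains of collagen XI, were not called.

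Of 14 transcription factors of chondrocytes tested, 5 fell and 0 rose. Sox8 went from 9.61, 9.24 and 9.33 to 6.33, 6.01 and 6.54 (log2 fold change -3.09), and Barx2 was at least 3.57-fold lower at D10. Sox6, a partner of Sox9, fell by 1.03, Pax1 by 1.48 and Nkx3-2 by 1.44. The call of Sox6 is lost without D7 replicate 1 (-0.97) or D10 replicate 1 (-0.94). Sox5 (0.00) and Sox9 (0.06) showed no call, and the sign of the Sox9 value changed under other settings.

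Of 15 genes of hypertrophic cartilage 5 fell and 1 rose. Mmp13, the collagenase of late hypertrophic cells, went from 15.66, 15.09 and 15.79 to 12.17, 13.68 and 13.16 (log2 fold change -2.51), and Panx3, a channel gene, fell by 2.01. Mef2c, a transcription factor that drives hypertrophy, fell by 1.14. Slc37a2, a sugar phosphate exchanger gene, rose by 1.54. Col10a1, Runx3 (-0.45) and Vegfa (0.83) were not called, so the list did not move in 1 direction.

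The hedgehog and PTHrP loop was lower at several steps, with 8 of 16 genes lower and 0 higher. The ligand gene Ihh (chromosome 1, 74945315 to 74951672) stood at 7.94, 7.88 and 7.39 at D7 and at 0, 2.84 and 2.44 at D10. Pth1r, the receptor of PTHrP, went from 13.35, 12.77 and 13.39 to 10.09, 10.52 and 10.32 (log2 fold change -2.86, adjusted p = 8.4e-09, limma), and Pthlh, the ligand, fell by 1.55. The hedgehog receptor gene Ptch1, which is also a target of the pathway, fell by 1.17, and the target and effector Gli1 by 1.30. The coreceptor genes Boc and Gas1 fell by 1.76 and 1.13, while Smo (-0.68), the transducer, was not called.

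Bone matrix genes moved in both directions, with 5 higher and 8 lower of 18. The osteocalcin genes were low at D7 and rose. Bglap2 (chromosome 3, 88377736 to 88378699) went from 2.03, 3.63 and 3.87 to 7.53, 7.49 and 7.48 (log2 fold change 4.32, standard error 0.39, adjusted p = 5.2e-07, limma). Bglap went from 2.03, 4.16 and 3.45 to 6.72, 6.58 and 6.08, and Bglap3 was at least 2.89-fold higher. These are neighbouring near-identical genes, and reads may have been split among them. Dmp1, a matrix phosphoprotein of osteocytes, went from 4.92, 5.38 and 5.39 to 7.42, 9.09 and 8.68 (log2 fold change 3.17).

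The 8 genes of that list that fell include some at high levels. Tnn, tenascin W, went from 14.12, 13.43 and 14.11 to 9.18, 9.57 and 9.24, a log2 fold change of -4.55 (adjusted p = 1e-10, limma). Postn, periostin of the periosteum, fell by 2.60, the keratan sulfate proteoglycan gene Omd by 3.29 and Col5a1 by 1.72. Sparc (-0.64), which encodes the abundant bone protein osteonectin, and Ifitm5 (-0.99), a gene of mineralizing osteoblasts, were not called.

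Of 14 mineralization regulators 5 rose and 2 fell. Alpl, the phosphatase that frees phosphate from pyrophosphate, went from 13.67, 12.74 and 13.79 to 9.83, 10.58 and 10.01 (log2 fold change -3.26), and Smpd3, a sphingomyelinase needed for mineralization, fell by 3.04. The pyrophosphate exporter gene Ank went from 11.59, 11.92 and 11.82 to 13.49, 14.05 and 14.14. Fam20c, the kinase that phosphorylates secreted matrix proteins such as osteopontin, went from 10.10, 10.08 and 10.23 to 12.53, 12.36 and 12.34 (log2 fold change 2.27, standard error 0.10, adjusted p = 7.4e-10, limma). The phosphate transporter gene Slc20a1 rose by 1.65 and Phex by 1.32, a call lost without D7 replicate 3 (1.16, adjusted p = 0.058, limma). The exporter, the kinase and the transporter were thus higher while the phosphatase was lower, with no overlap in any of them.

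**Figure D2:**
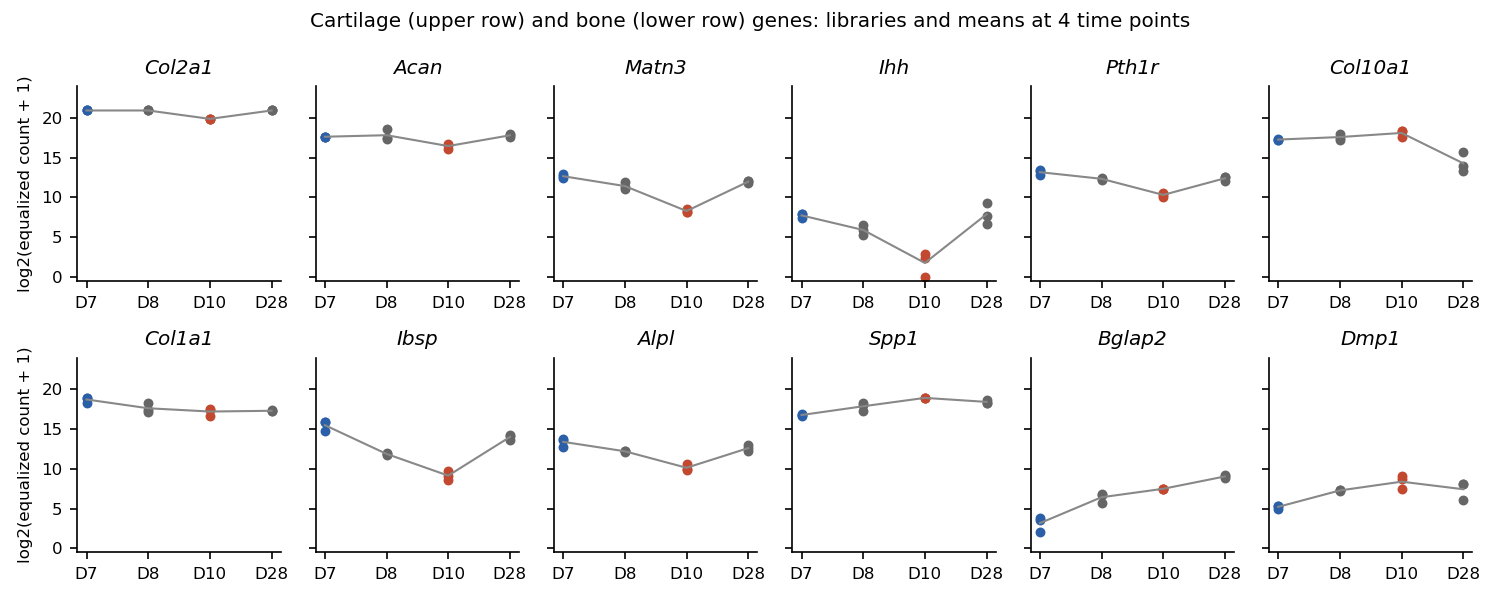
Levels, in log2 of the equalized count plus 1, of 6 cartilage genes (upper row) and 6 bone genes (lower row) at D7, D8, D10 and D28, with 1 point per library and a line through the means. Ibsp, Alpl, Matn3 and Ihh have their lowest mean at D10, while Spp1 and Dmp1 have their highest there.

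Levels at D8 and D28 show where the D10 values lie in the course. Ibsp was at 12.03, 11.88 and 11.73 at D8 and at 14.01 ± 0.31 (SD, n = 3) at D28, so its D10 mean of 9.15 was the lowest of the time points. Alpl was at 12.21 ± 0.10 at D8 and 12.61 ± 0.39 at D28. Bglap2 was at 6.71, 6.85 and 5.74 at D8 and at 9.05 ± 0.19 at D28, with each mean above the one before. Most of the rise of Bglap2 up to D10 was present after 1 day, with a log2 fold change of 3.26 for D8 against D7 (adjusted p = 4.2e-05, limma) and 1.06 for D10 against D8, which was not called (adjusted p = 0.055, limma).

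Transcription factors of osteoblasts were split, with 4 higher and 3 lower of 18. Sp7 went from 10.61, 10.19 and 10.91 to 8.95, 9.44 and 9.35 (log2 fold change -1.33, adjusted p = 6.1e-05, limma), while Runx2, at 10.03, 9.77 and 9.64 at D10, was not called (-0.35). Alx4, a homeobox factor of limb and skull, went from 8.70, 8.41 and 8.92 to 5.97, 5.88 and 5.81, and Msx1 fell by 1.06. Twist2 rose from 3.93, 4.30 and 4.11 to 6.54, 5.88 and 5.87, Dlx3 rose by 1.29, and the stress and osteoblast factor Atf4 by 1.18. The call of Msx1 is lost without D7 replicate 1 (-0.97) or D10 replicate 2 (-0.90) and that of Atf4 without D10 replicate 1 (0.95). Without D7 replicate 2 the list holds 5 lower genes.

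The factors Mesp1, Alx1, Grhl3 and Hmx3, which the study itself followed from these samples, are no independent evidence of direction. Hmx3 stood at 0.94, 0 and 1.37 at D7 and at 6.09, 5.13 and 4.57 at D10, at least 5.24-fold higher. Grhl3 stood at 0.94, 1.54 and 1.37 and then at 5.53, 3.91 and 3.49, and Mesp1 at 0.94, 1.54 and 0 and then at 5.53, 3.58 and 3.68. Alx1 went from 3.07, 3.82 and 2.46 to 5.53, 4.81 and 5.58. For Hmx3, Grhl3 and Mesp1 the library with the highest level at D10 was replicate 1, the shallowest, in which a single read stands at 1.81.

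Genes that ERK signalling induces, among them its own brakes and ETS factors, had the largest share of higher members among the lists examined. Of 17 tested, 13 rose and 0 fell, with a median log2 fold change of 1.94, beside 8.50% higher among all genes. Spry2, an inhibitor of receptor tyrosine kinase signalling, went from 6.49, 6.29 and 6.66 to 10.98, 10.38 and 10.72 (log2 fold change 4.21, standard error 0.19, adjusted p = 7.4e-10, limma). Etv4, an ETS factor induced by FGF and EGF signals, went from 4.04, 4.43 and 3.87 to 7.77, 7.11 and 7.64, and Dusp5 from 5.74, 5.93 and 6.38 to 8.98, 8.84 and 8.95. Dusp6 rose by 2.45, Spry4 by 2.18, Etv5 by 2.24, Etv1 by 2.16 and the EGF receptor inhibitor gene Errfi1 by 1.02. The call of Errfi1 is lost with median-of-ratios scaling (0.94) and without D10 replicate 1 (0.91), and 12 genes of the list are higher in each of these settings. Spry3 (-0.99) passed as lower under 6 of the alternatives, and Dusp2 (1.03), Spred1 (0.33) and Ier3 (0.29) were not called.

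Of the EGF family, 4 ligands rose and no receptor did. Areg (chromosome 5, 91139599 to 91148432), which encodes amphiregulin, stood at 0.94, 0 and 0 at D7 and at 8.20, 6.86 and 7.49 at D10. It was thus at least 25.0-fold higher (limma, adjusted p = 3.5e-07). It was at 3.45, 3.06 and 2.50 at D8, so most of this rise came after the first day in osteogenic medium. Hbegf went from 9.63, 9.98 and 9.87 to 11.25, 11.87 and 12.06, and Epgn, at 0 in every D7 library, was at least 1.63-fold higher, a call that is lost with low values lifted to the level of 3 reads. Tgfa fell by 1.22, the receptor gene Erbb3 by 3.00 (-2.37 without D10 replicate 1) and the inhibitor gene Lrig3 by 1.34, while Egfr (-0.72) was not called. The list of 16 thus held 4 higher and 3 lower genes.

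Immediate early factors moved in part, with 5 higher and 0 lower of 15. Egr3 went from 4.14, 4.86 and 3.72 to 7.57, 7.37 and 7.24, Egr1 from 9.87, 9.91 and 10.18 to 12.42, 11.82 and 11.62, and Atf3 from 9.40, 9.38 and 9.56 to 12.66, 11.32 and 11.52. Fosl1, the Fos relative that ERK stabilizes, rose by 1.85 and Myc by 1.55. Fos (0.63), Jun (-0.11), Junb (-0.15) and Jund (-0.06), the core AP-1 subunits, were not called.

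Among the FGF receptor genes, Fgfr3, Fgfr2 and Fgfr4 were lower. Fgfr3, the brake on chondrocyte proliferation, went from 13.83, 13.54 and 13.67 to 11.36, 11.35 and 11.63 (log2 fold change -2.23, adjusted p = 1.7e-07, limma). Fgfr2 went from 12.47, 12.11 and 12.65 to 9.74, 10.09 and 10.07, and Fgfr4 was at least 6.96-fold lower. Fgfr1 (-0.15) was not called. Fgf2 rose by 1.19 and Fgf10 by 2.15, and of the 16 genes of the list 2 were higher and 5 lower.

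**Figure D3:**
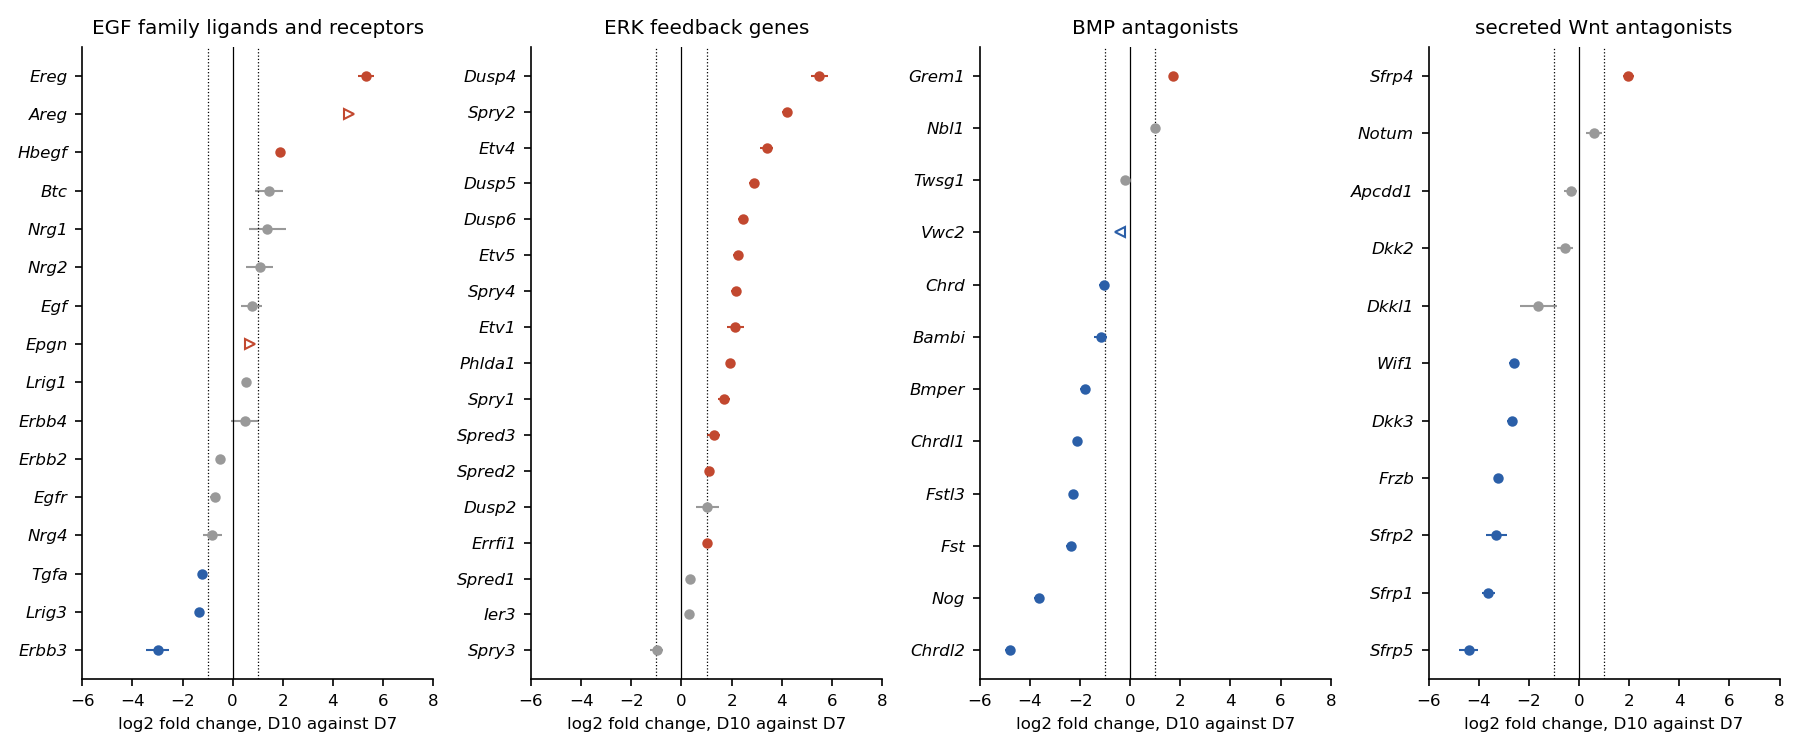
Log2 fold change of D10 against D7 with its standard error (limma, 3 libraries a group) for tested members of 4 lists, 3 antagonists left out (2 of them under the 3-read level in both groups), red where called higher, blue where called lower and grey where not called, with dotted lines at -1 and 1 and open triangles, with no error, for genes with 1 group under the 3-read level, placed at the log2 of the bound. Most ERK feedback genes and the EGF receptor ligands Areg, Ereg, Epgn and Hbegf lie to the right, up to 5.50 for Dusp4, the ligand Tgfa lies to the left, and the secreted BMP and Wnt antagonists mostly to the left, down to -4.78 for Chrdl2.

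Secreted antagonists of BMP fell widely, with 9 of 14 lower and 2 higher. Chrdl2, a chordin relative of cartilage (chromosome 7, 100006172 to 100034728), went from 12.53, 12.34 and 12.61 to 7.88, 7.68 and 7.57. Nog (chromosome 11, 89300638 to 89302332), which encodes noggin, went from 10.52, 10.34 and 10.46 to 6.72, 6.69 and 7.00, and Fst, follistatin, fell by 2.36. Grem1, which encodes the antagonist gremlin 1, moved the other way, from 10.87, 10.86 and 10.70 to 12.60, 12.50 and 12.50. Of the 13 ligands, Bmp2, an inducer of bone, rose from 6.65, 6.69 and 7.15 to 9.39, 10.27 and 10.68 (log2 fold change 3.29), and 5 fell, among them Bmp8a (-3.25), Bmp4 (-1.12) and Bmp3 (-1.14). The call of Bmp4 is lost without D10 replicate 2 (-0.97) and that of Bmp3 without D7 replicate 2 (-0.93) or D10 replicate 3 (-0.91).

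The receptors, Smads and Id genes downstream held 2 higher and 3 lower of 18, 27.8% called beside 18.9% over all genes. Id3, a direct target of BMP, went from 11.19, 10.75 and 11.37 to 9.17, 9.93 and 9.95, while Id1 (-0.15) and Id2 (0.11) were not called. Smad7, an inhibitor of the pathway, rose by 1.11. The call of Acvr2b (1.35) is lost under 9 alternatives, whose adjusted p reaches 0.14 (limma).

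Secreted Wnt antagonists showed a like picture, with 6 of 12 lower and 1 higher. Frzb, which binds Wnt proteins in cartilage, went from 11.54, 11.44 and 11.28 to 8.03, 8.19 and 8.34, and Sfrp5 from 8.34, 9.06 and 8.41 to 3.98, 4.05 and 4.57. Wif1 fell by 2.59 and Dkk3 by 2.69, and Sfrp4 rose by 1.97. Dkk1 stood at 0 in every D7, D8 and D10 library. Among 24 Wnt ligands and targets, 2 rose and 7 fell. Wnt7b, a ligand that promotes osteoblast differentiation, went from 5.46, 5.48 and 6.28 to 8.61, 8.77 and 8.99, Wnt4 fell by 2.32 and Wnt11 by 2.62, while Axin2, a general target, stood at 0.00 on the fold change scale.

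Notch genes were split in the same comparison. Dll1, a ligand gene, went from 3.26, 3.12 and 4.64 to 6.70, 6.27 and 5.90 and the ligand gene Jag1 from 8.69, 8.57 and 8.85 to 9.92, 9.70 and 9.91. The receptor gene Notch3 fell by 1.35, and Notch1 by 1.00, a call lost without D7 replicate 1 or D10 replicate 3. In all 2 rose and 2 fell of 8. Of 18 modulators and targets 2 rose and 5 fell. Dlk1, which encodes a noncanonical Notch ligand of progenitor cells, went from 10.81, 11.39 and 11.05 to 8.08, 7.99 and 8.20. The target Hey1 (1.05) and the effector Rbpj (1.02) lose their calls with median-of-ratios scaling and without D10 replicate 1 (0.95 and 0.80), and Hey1 also without D7 replicate 1 (0.82).

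Tgfb2 and Tgfb3 fell while the activin subunit genes Inhba and Inhbb rose. Tgfb3 went from 10.57, 10.31 and 10.84 to 8.09, 8.91 and 8.70, Tgfb2 fell by 1.55 and Tgfbi, a target gene, by 2.56. Inhba, the activin A subunit, went from 10.62, 10.56 and 10.41 to 12.11, 12.44 and 12.76, and Inhbb rose by 1.31. Of 19 genes 3 rose and 4 fell. Among 14 genes of the IGF system 1 rose and 5 fell. Igf1 went from 11.16, 10.85 and 10.91 to 7.28, 7.99 and 7.76, Igf2 from 13.01, 12.62 and 12.78 to 9.45, 9.99 and 9.65, and the binding protein gene Igfbp5 from 14.13, 14.30 and 14.35 to 16.00, 15.87 and 15.41.

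Imprinted genes that control growth were lower as a list, 13 of 18, with 1 higher and a median log2 fold change of -1.38. Mest (chromosome 6, 30723547 to 30748465) went from 13.44, 12.63 and 13.49 to 7.60, 7.60 and 7.73, a log2 fold change of -5.55. H19 (chromosome 7, 142575529 to 142578143), a noncoding RNA gene next to Igf2, went from 18.02, 18.02 and 17.65 to 14.91, 15.44 and 15.23, and its mean unlogged value from 246222 to 37866. The zinc finger gene Zim1 fell by 3.66, Peg3 by 2.08 and the cell cycle inhibitor gene Cdkn1c by 2.25. Phlda2, a gene that restrains placental growth, rose from 3.69, 2.79 and 3.87 to 6.42, 6.66 and 7.16. At D28 Mest was at 13.48 ± 0.01 and H19 at 17.62 ± 0.22 (SD, n = 3), near their D7 levels.

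Elastic fibre genes fell, 12 of 18 with 0 higher and a median of -1.60. Eln, elastin itself, went from 16.00, 15.82 and 16.08 to 11.59, 12.58 and 11.96 (log2 fold change -3.92, adjusted p = 1.8e-09, limma). The microfibril genes Fbn2 and Mfap4 fell by 3.73 and 4.24, and the crosslinking enzyme genes Loxl2 and Loxl3 by 1.69 and 1.88. Fbn1 (-0.11) and Lox (-0.42) were not called.

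Matrix proteases and their inhibitors held 15 lower and 3 higher genes of 35. Mmp10, a stromelysin, was at 0.94, 1.54 and 2.46 at D7 and at 5.68, 6.45 and 6.47 at D10, at least 10.0-fold higher. Adamts4, an aggrecanase, fell by 2.04, while the aggrecanase Adamts5 (-0.13) was not called. Adamts17 went from 8.82, 8.53 and 8.70 to 5.19, 5.18 and 5.72 and the inhibitor gene Timp4 from 8.68, 9.74 and 8.88 to 4.31, 5.64 and 4.57.

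Integrins, the receptors of matrix, held 4 higher and 4 lower of 19. Itga2 (chromosome 13, 114833081 to 114932100), a collagen receptor subunit, went from 4.69, 4.80 and 4.79 to 9.25, 9.97 and 10.40, and it was already at 9.39, 9.76 and 9.66 at D8. Itgb3, a subunit of osteopontin and vitronectin receptors, went from 9.74, 9.70 and 9.71 to 12.55, 11.71 and 11.89. Itga11, another collagen receptor subunit, fell by 1.38 and Itga4 by 2.85. Of 28 genes of glycosaminoglycan synthesis 1 rose and 4 fell, 17.9% called beside 18.9% over all genes. Has1, a hyaluronan synthase, rose by 2.25 and Has2 fell by 1.10, and the sulfate pathway genes Papss2 and Slc26a2 fell by 1.00 and 1.08. The call of Papss2 is lost without D7 replicate 1, D7 replicate 2 or D10 replicate 2 (-0.98 to -0.96), that of Has2 without D7 replicate 2 (-0.95) and that of Chst12 without D7 replicate 3 (-0.92). Without D10 replicate 1 the calls of Has2 (-0.93), Slc26a2 (-0.87) and Chst12 (-0.90) are lost and, with members gained, the list holds 2 higher and 2 lower genes.

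**Figure D4:**
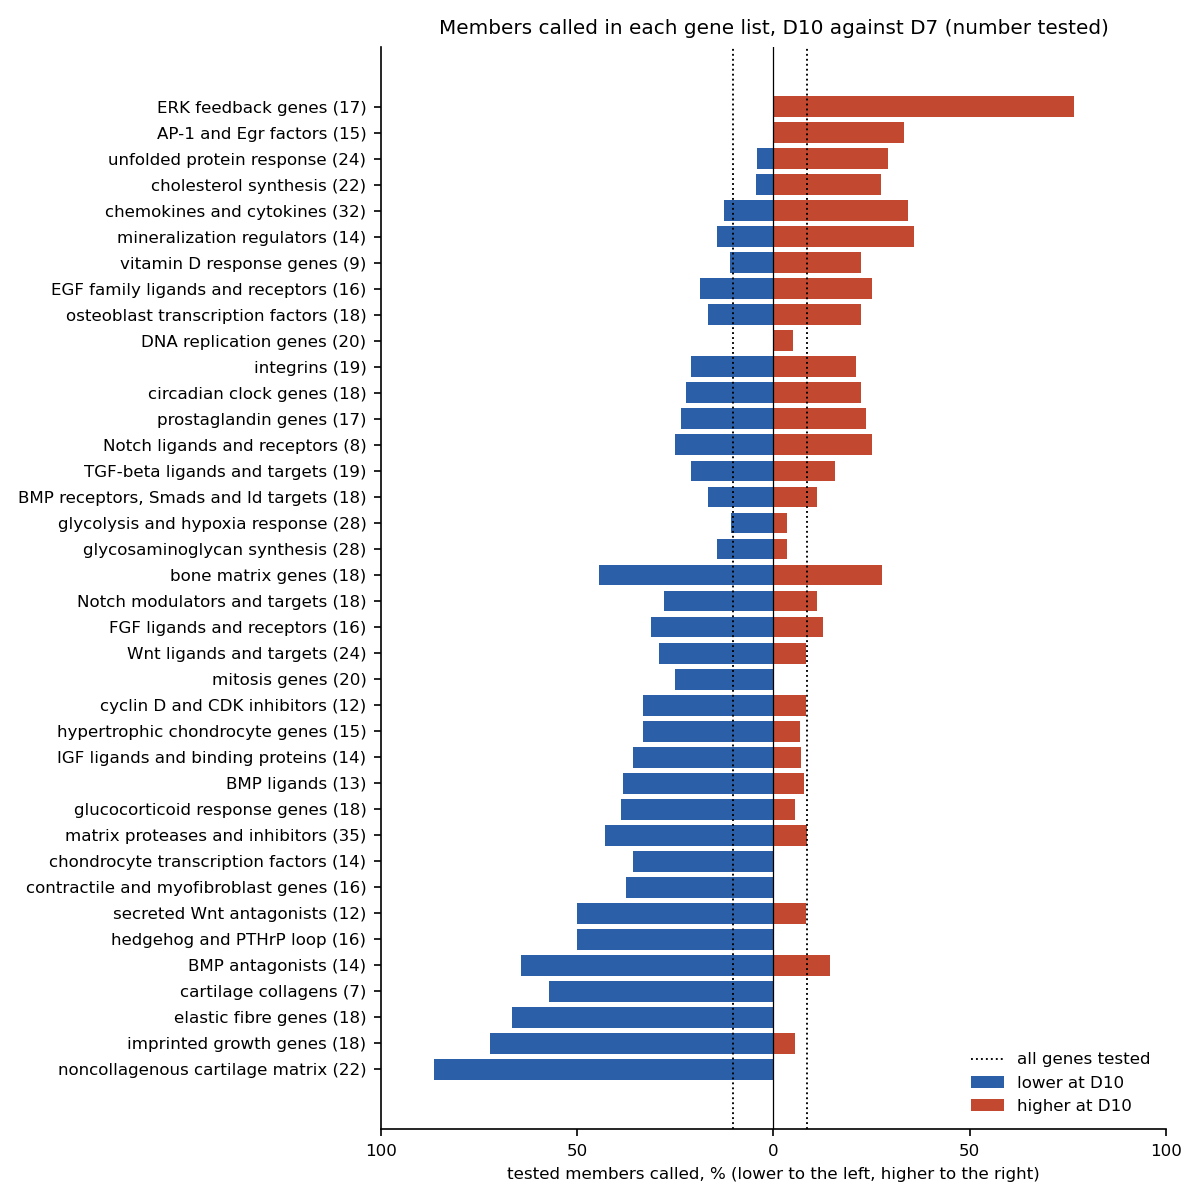
Share of the tested members of each gene list, in %, that were called lower (left, blue) or higher (right, red) at D10 against D7, with the number tested in brackets and dotted lines at the shares over all genes, 10.4% and 8.50%. ERK feedback genes reach the highest share to the right and noncollagenous cartilage matrix genes the highest to the left.

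The unfolded protein response, which raises chaperones when the endoplasmic reticulum is loaded, held 7 higher and 1 lower gene of 24. Hspa5, whose promoter is shown above, went from 14.51, 14.83 and 14.64 to 17.46, 16.76 and 16.82 (log2 fold change 2.35, adjusted p = 3.8e-07, limma). Its mean unlogged value went from 26009 to 135613. Sdf2l1, a chaperone cofactor, went from 8.00, 8.30 and 8.33 to 10.54, 10.19 and 10.40, Hsp90b1 rose by 1.32 and the stress factor gene Ddit3 by 1.69. Hspa5 had reached 16.64, 16.34 and 16.34 after 1 day. Chac1, a target of Ddit3 and Atf4, fell by 1.18, and Calr (0.51), Pdia6 (0.50), Canx (0.91), Dnajc3 (0.15) and Creld2 (0.65), whose promoters hold the same element, were not called.

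Of 17 prostaglandin genes 4 rose and 4 fell, and Ptgs2 and Pla2g4a of the entry steps of synthesis were among the higher. Ptgs2 (chromosome 1, 150100031 to 150108227), cyclooxygenase 2, went from 8.73, 8.87 and 8.51 to 13.84, 13.47 and 13.89. Pla2g4a, the phospholipase that supplies its substrate, went from 10.17, 10.66 and 9.96 to 12.71, 12.58 and 12.71. Hpgd, which inactivates prostaglandins, went from 10.26, 9.79 and 9.95 to 7.04, 7.15 and 6.72, and the prostacyclin synthase gene Ptgis fell by 1.87. Ptges (-0.85), a synthase of prostaglandin E, was not called. Ptgs1, the other cyclooxygenase gene, was not called in any setting (0.02 to 0.33). Ptgs2 was at 11.21 ± 0.16 at D8 and 8.11 ± 0.99 at D28 (SD, n = 3).

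Of 32 chemokines and cytokines 11 rose and 4 fell, and the higher ones were mostly at low levels. Il6 went from 2.03, 3.45 and 2.03 to 6.00, 5.36 and 5.97, and Lif, of the same family, from 7.03, 6.89 and 7.66 to 9.04, 9.37 and 9.42. Csf2 was called, but both groups were at or under 3 reads. With a filter on a mean level of at least 3 the list holds 6 higher genes. Cxcl12, a chemokine that retains blood progenitors, went from 11.75, 11.22 and 11.85 to 7.40, 7.48 and 7.40. Tnfsf11, which encodes the osteoclast inducer RANKL, went from 10.43, 10.15 and 10.54 to 7.46, 8.37 and 7.89, and its decoy receptor gene Tnfrsf11b from 10.37, 10.68 and 10.31 to 11.73, 12.25 and 12.49.

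Glucocorticoid response genes were lower in 7 of 18 and higher in 1. Tsc22d3, also called GILZ, went from 13.64, 13.77 and 13.76 to 12.12, 11.90 and 11.99, Cebpd from 12.05, 11.77 and 11.99 to 9.27, 9.37 and 9.40, and Fkbp5 fell by 1.35. Hsd11b2, which inactivates corticosterone, went from 8.91, 8.48 and 9.71 to 3.76, 4.05 and 2.79. The receptor gene Nr3c1 (-0.23) was not called. Of 9 vitamin D response genes 2 rose and 1 fell, 33.3% called beside 18.9% over all genes. The lower one was the receptor gene Vdr, which went from 9.71, 9.19 and 9.61 to 6.22, 6.66 and 6.60.

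Cell cycle genes were examined in 3 lists. Of 20 mitosis genes 5 fell and 0 rose, 25% called beside 18.9% over all genes. Mki67, the proliferation antigen, went from 10.64, 10.41 and 10.44 to 8.99, 9.06 and 8.78 (log2 fold change -1.55). With median-of-ratios scaling 8, and without D10 replicate 2, 9 of these genes fell. The call of the cyclin gene Ccnb2 (-1.02), 1 of the 5, is lost under 6 alternatives. Of 20 genes of DNA replication 5% were called, below the share over all genes. The 1 that rose was the licensing factor gene Cdt1, from 8.17, 8.12 and 8.76 to 10.91, 10.02 and 10.15. Mcm7 is also called without D7 replicate 3 (1.02) or D10 replicate 2 (1.08), and Pcna without D7 replicate 2 (1.11). Ccne2 is called as lower without D7 replicate 3 (-1.15). Among 12 cyclin D and CDK inhibitor genes 4 fell, including Ccnd3 (-2.01), and 1 rose, Cdkn2a (1.01), a call lost under 10 alternatives.

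Marker lists of other cell types moved with the groups, and their part in the results was not tested. Of 11 skeletal muscle genes 8 fell and 0 rose, and their summed unlogged level was 3043 to 3884 at D7 and 313 to 443 at D10. Myog, a muscle differentiation factor, went from 7.58, 7.93 and 7.29 to 4.31, 3.43 and 3.07, the embryonic myosin gene Myh3 from 8.98, 9.53 and 8.57 to 2.44, 2.84 and 4.79, and Myod1 was at least 6.45-fold lower. Of 16 contractile genes, which muscle also uses, 6 fell and 0 rose, and the fall of 1 of them, Cnn1, loses its call under 9 alternatives. Their summed level was higher at D10, 29116 to 29866 against 20510 to 23849, and Flna (0.91), at the highest level of the list, was not called. Adipocyte markers fell in 6 of 8, with a summed level of 6152 to 6688 and then 2477 to 2735, and Adipoq, the hormone adiponectin, went from 6.65, 7.67 and 6.86 to 4.16, 3.58 and 4.31.

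Macrophage markers were mixed, 2 higher and 5 lower of 12, with a summed level of 1263 to 1543 at D7 and 1260 to 1698 at D10. Cd68 held 10.1% to 13.5% of that sum at D7 and 35.9% to 55.0% at D10, and the other macrophage markers together summed to between 1127 and 1387 at D7 and between 763 and 849 at D10. The complement genes C1qa (-2.87), C1qb, at least 4.63-fold lower, and C1qc (-3.15) fell, while Cd68, a lysosomal gene, rose by 1.88 and Cd14 by 1.68. Of 7 osteoclast markers 2 rose, 28.6% called beside 18.9% over all genes. Ctsk, a collagen-degrading protease that fibroblasts also express, went from 12.17, 12.18 and 12.44 to 13.49, 13.57 and 13.65. Atp6v0d2 went from 4.35, 3.63 and 4.56 to 7.97, 7.26 and 7.55. Ctsk held 72.2% to 74.9% of the summed osteoclast level at D10. That sum was 6970 to 8133 at D7 and 15369 to 17480 at D10, and without Ctsk 2338 to 2572 and 3863 to 4686. Of 8 endothelial markers 2 rose, 25% called beside 18.9% over all genes. Vwf rose from 5.14, 5.01 and 4.64 to 8.70, 8.59 and 8.66. Kdr rose at least 2.06-fold, a call lost at the 3-read level. Cdh5 (-0.59), Pecam1 (0.86) and Emcn (-1.88) were not called, but Emcn is called as lower without D10 replicate 1 (-2.74). Vwf held 79.8% to 95.0% of the summed endothelial level at D10, and the sum of the others overlapped, 27.3 to 51.7 at D7 and 20.2 to 105 at D10.

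The remaining lists were small. Tendon markers held 3 lower genes, among them Tnmd, from 7.30, 7.91 and 6.59 to 3.26, 3.17 and 3.97, and 1 higher, Egr1, of 6. Egr1 held 77.6% to 88.2% of their summed level at D10, and the other markers together summed to between 1569 and 1734 at D7 and between 732 and 1034 at D10. Neural markers held 1 higher and 1 lower of 8, 25% called beside 18.9% over all genes. S100b held 91.6% to 95.9% of their summed level at D10, and the sum of the others overlapped, 136 to 202 at D7 and 142 to 207 at D10. Keratinocyte markers also held 1 higher and 1 lower of 8, the same 25%. Krt18 went from 4.69, 5.46 and 4.79 to 8.27, 8.20 and 8.46 and Trp63 from 6.79, 6.12 and 6.57 to 3.26, 3.43 and 3.49. Krt18 held 81.0% to 84.2% of the summed keratinocyte level at D10, and the other markers together summed to between 147 and 195 at D7 and between 66.1 and 69.2 at D10. Of the blood markers only Alas2 was tested, with a summed level of at most 8 in any D7 or D10 library, and the haemoglobin genes did not pass the filter.

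**Figure D5:**
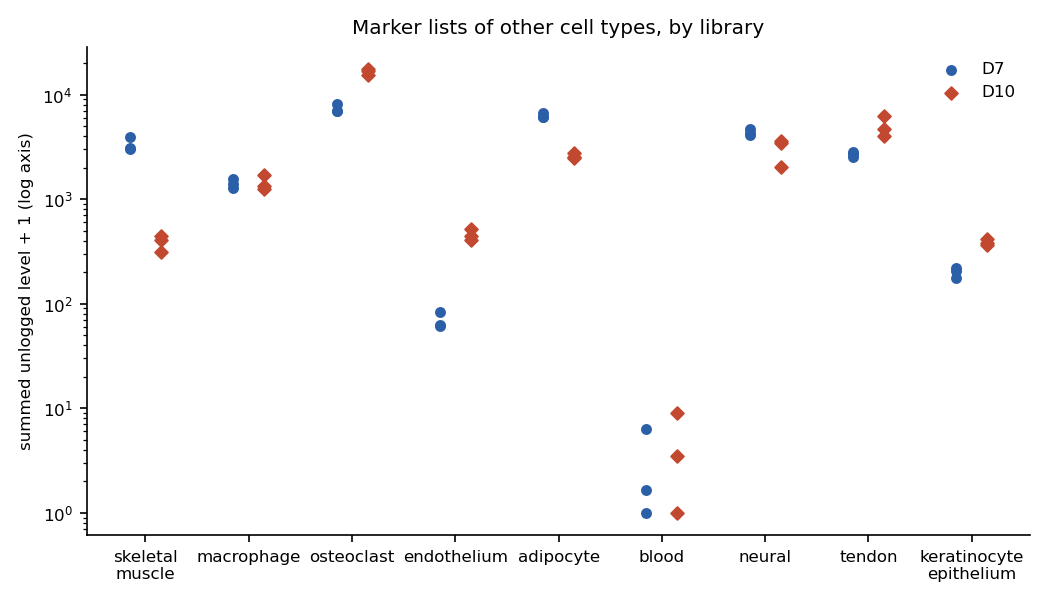
Summed unlogged level plus 1 of each marker list of other cell types, on a log axis, with 1 point per library at D7 (circles) and D10 (diamonds). Skeletal muscle, adipocyte and neural sums are lower at D10, macrophage and blood sums overlap, and the osteoclast, endothelial, tendon and keratinocyte sums are higher, each with most of it from 1 gene (Ctsk, Vwf, Egr1 and Krt18), as S100b is of the neural sum. Without that gene the osteoclast sum is still higher, the endothelial and neural sums overlap, and the tendon and keratinocyte sums are lower at D10, as is the macrophage sum without Cd68.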

How the data were processed

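Paired-end RNA-seq libraries of 12 pellet samples, 3 per time point, had been trimmed with Trimmomatic 0.36, aligned with HISAT2 and counted with HTSeq by the authors, who also list Cufflinks. The submitters' processing notes name GRCm38, the supplementary methods hg38, and the symbols are those of mouse. The strand setting of the counting is not given in the sources used here, so reads of overlapping or antisense genes may be shared. The deposited values are log2 of the equalized count plus 1, with no original depth. The labels describe 2 library kits without saying which was used, while the supplementary methods name only the Illumina Stranded mRNA Prep ligation kit. The labels also give no batch or date. They do not state separate cultures, so p-values measure the spread between these samples, which may be technical.

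limma 3.58.1 (R 4.3.3, lmFit and eBayes with a trend, residual degrees of freedom 8) was fitted with 1 mean per time point to genes at a level of at least 1 in at least 3 libraries, with two-sided p-values adjusted by Benjamini-Hochberg over all genes tested. Genes named were the 12 largest rises and falls at a level of at least 7 in every library of the higher group without overlap, predicted symbols passed over, the 6 largest gains and losses in unlogged level, up to 4 members per list with the largest change, and genes whose role the text needs. Further list members were named for their role. Members, lists and rules were chosen with earlier results of these data known, and the ER stress and CArG motifs after the data were seen. Some genes counted in lists are not reported here by name. The fit was tested on simulated data. Gene positions are those of GENCODE M21, and figures were made with matplotlib 3.10.9. Alternatives were other filters, scaling, pseudocount, floor, block, variance prior, fold thresholds, the study's rule and each replicate left out.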

Additional observations from a re-analysis of the deposited data

How the results depend on the processing

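The number of genes called, 3340, lay between 2761 and 3464 under the alternatives that kept the fold threshold. Without a fold threshold 7288 genes passed, 3855 higher and 3433 lower, and at a threshold of 2 on the log2 scale there were 1342, 494 higher and 848 lower. Leaving out each replicate in turn gave 3028 to 3464 genes, 1334 to 1567 higher and 1688 to 1911 lower. Deviations of same-numbered libraries correlated at -0.024, 0.0046 and -0.026, so no pairing by replicate number was seen. These values cannot tell whether same-numbered pellets shared a cell preparation. With a replicate block 3326 genes were called. Of 747 genes in the lists or named by rule, 337 were called, of which 285 kept the call in every one of up to 15 settings that tested them and 52 lost it in at least 1, and 65 genes not called gained a call in at least 1. Among the 213 of these named by rule, 0 called genes reversed. The value of Sox9 was -0.018 with median-of-ratios scaling, and with a replicate left out it ran from -0.12 (without D7 replicate 2) through -0.033 (without D10 replicate 1) to 0.16. That of Alas2 ran from -0.23 (without D10 replicate 2) and -0.041 (without D7 replicate 3) to 1.36. Of 94 list counts, 22 moved by more than 1.5 times in some setting, and 3 of the 58 values concerned differed by 3 or more genes. The cause was not tested. Precision is limited for genes near the 3-read level, and at the top of each library, where levels are set by rank.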

Other observations

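Genes of cholesterol synthesis were partly higher, 6 of 22, with 1 lower. Msmo1, a sterol oxidase, went from 10.17, 11.00 and 10.24 at D7 to 12.62, 12.30 and 12.75 at D10, a log2 fold change of 2.09, and Insig1, which senses sterols, from 10.11, 10.27 and 10.05 to 12.90, 11.72 and 12.07. Pmvk, an enzyme of the mevalonate steps, fell by 1.24 (limma).

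Clock genes moved in both directions, 4 higher and 4 lower of 18. The repressor gene Nr1d2 rose from 9.89, 10.10 and 9.72 to 11.74, 11.26 and 11.40, and Npas2 fell by 1.98, while the core gene Arntl (-0.10) was not called. Without D10 replicate 1 the list holds 2 higher genes. Among 28 genes of glycolysis and the hypoxia response, 1 rose and 3 fell, 14.3% called beside 18.9% over all genes, and the fall of Bnip3 (-1.46) loses its call in 1 of 15 settings. The glucose transporter gene Slc2a1 went from 12.79, 12.98 and 12.87 to 15.44, 14.23 and 14.36 and the carbonic anhydrase gene Car12 fell by 2.02, while the glycolytic genes Gapdh (-0.34) and Ldha (-0.02) were not called.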
